A study of Mus musculus with 61 samples.

Results

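The 10 genes described here encode proteins of the cytotoxic granule: the granzymes Gzma, Gzmb, Gzmc, Gzmf, Gzmk and Gzmm, the pore former perforin (Prf1), and the granule proteins Nkg7, serglycin (Srgn) and cathepsin W (Ctsw). They were chosen by gene symbol, and all 10 were among the 24421 genes of the count files. Cytotoxic T cells and natural killer (NK) cells keep granzymes and perforin in secretory granules, bound to the proteoglycan serglycin, and release them onto a target cell. Perforin opens the membrane of the target, and the granzymes, which are serine proteases, then cut proteins inside it. Interleukin-2 (IL-2), which signals through the transcription factors STAT5A and STAT5B, is known to raise granzyme RNA in activated T cells.

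The study examined mouse STAT5B carrying either of 2 substitutions of a tyrosine in its SH2 domain, Y665F and Y665H, beside unmutated STAT5B and N642H, another substitution in that domain. Total RNA depleted of ribosomal RNA was sequenced from 61 libraries of cells or tissue of C57BL/6 mice at 2 months of age. For the first experiment, naive CD4+ T cells pooled from lymph nodes and spleens were activated through the T cell receptor and CD28, infected with a retrovirus that also carried GFP, kept in IL-2 for 48 h and sorted for GFP. The second experiment used T cells isolated from the spleens of WT and knock-in mice, and the third used their unstimulated spleen.

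The CD4+ cells were of 2 backgrounds, with 3 libraries in each of 10 groups. The cells called null here came from mice in which Cd4-Cre deletes floxed Stat5a and Stat5b, and the cells called WT came from mice that keep both genes. Each background received an empty vector or a vector with STAT5B, N642H, Y665F or Y665H. The labels give the genotype Stat5a/b flox/flox for all 30 of these libraries, so the background was taken from their titles and checked against the RNA. Cd4-Cre is active from the thymus on, so null cells lacked STAT5 before they were activated, and a viral promoter drove the added STAT5B. WT, Y665H and Y665F splenic T cells were kept with IL-2 plus IL-7 for 24 h, with 4 libraries of each, and a further 3 libraries hold Y665F cells that received no interleukin. No library holds WT or Y665H cells without interleukin. The labels give no culture time for the Y665F cells without it, so interleukins and time in culture cannot be told apart. Spleen was WT in 4 libraries, Y665H in 5 and Y665F in 7. The labels do not say whether the knock-in mice carried the substitution on one allele or both, and the mice carried it in every cell type. Since nothing in the labels says that replicates were separate animals, p-values here measure the spread between libraries.

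Reads assigned to genes numbered 18.8 to 49.9 M per CD4+ library (median 34.6), 2.02 to 27.4 M per splenic T library (median 14.3, 14 libraries) and 24.2 to 43.3 M per spleen library (median 31.3). The library titled replicate 4 of the Y665H splenic T cells held no reads of its own: its count equalled the sum of replicates 1 and 2 in 24421 of 24421 genes. It was left out, so 60 libraries were used. The remaining Y665H libraries 1 and 2 (3.31 and 2.02 M reads) and Y665F library 3 with interleukins (2.85 M) were shallow, and 3 reads there correspond to 0.906, 1.49 and 1.05 CPM, the count per M reads after scaling.

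A pair of splenic T libraries stood apart in cell type markers. Y665F library 3 held 662 CPM of B cell markers (6 genes, most abundant Ms4a1) and 1080 CPM of erythroid markers (4 genes, most abundant Alas2), and its 9 T cell markers summed to 1060 CPM against 2410, 2190 and 1570 CPM in the other Y665F libraries. WT library 1 held 225 CPM of NK cell markers, against 83.7, 57.4 and 50.8 CPM in the other WT libraries. In spleen, Y665H library 1 had 760 CPM of erythroid and 112 CPM of neutrophil markers, where the other 4 Y665H spleens had 3570 to 5090 CPM and 352 to 1460 CPM. The part of these libraries in each result is given where leaving one out changed it.

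The RNA matched the titles of the CD4+ libraries. Stat5a stood at 1.75, 3.15 and 6.47 CPM in null cells with the empty vector and at 134, 165 and 170 CPM in WT cells with it. Stat5b stood at 2.84, 5.34 and 9.22 CPM in the former and 184, 208 and 205 CPM in the latter. Vectors with STAT5B or its variants brought Stat5b to between 182 and 365 CPM in null cells and between 370 and 564 CPM in WT cells. In each of the 5 null groups, Stat5a was highest in replicate 3, at 5.39 to 14.6 CPM. Markers of CD4+ T cells (Cd4 and Cd40lg) summed to 731 to 1280 CPM in these libraries, NK cell markers to at most 1.02 CPM, and Cd8a to at most 0.402 CPM with the empty vector, with Klra4 and Klra8 at 0 in all 30. In splenic T cells the T cell list summed to 1060 to 2790 CPM and in spleen to 406 to 1030 CPM.

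The granzyme genes lie in groups on the genome (GRCm38). Gzmb (chr14:56258838-56262260), Gzmc (chr14:56231441-56234656) and Gzmf (chr14:56205263-56211417) share 57 kb, and Gzma (chr13:113093825-113100981) and Gzmk (chr13:113171608-113225908) share 132 kb. Gzmm (chr10:79689020-79695261), Prf1 (chr10:61297833-61304680) and Srgn (chr10:62493833-62527451) are on one chromosome, and Nkg7 (chr7:43437073-43438249) and Ctsw (chr19:5465043-5468507) lie elsewhere. Gzmc and Gzmf resemble other granzymes of their cluster: 4.14% and 7.36% of the 50-base windows in their exons also occur in another granzyme gene, against 0% for the other 4. Their counts are therefore less certain than those of Gzma, Gzmb, Gzmk and Gzmm. Exons of Gzmf also overlap Gm4022 on the opposite strand by 151 bases, and exons of Ctsw overlap Fibp there by 9 bases.

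Promoters from RefSeq (GRCm38.p6; 250 bases before to 50 after the start) were at hand for 9 of the 10 genes, all but Ctsw. They are shown for Gzmb and Gzma, which rose together in splenic T cells, and for Gzmm, which rose with Gzmb in Y665F spleen. Capitals mark TTCNNNGAA, the spaced palindrome that STAT5 binds, which reads the same on both strands. It occurs in 2726 of 32851 promoters (8.3%) and in 3 of the 11 promoters of these genes, and such a match is a description, not a site. The upstream 250 bases of Gzmb (chr14:56262335-56262584, minus strand), Gzma (chr13:113100982-113101231, minus strand) and Gzmm (chr10:79688770-79689019, plus strand) read as follows.
Gzmb: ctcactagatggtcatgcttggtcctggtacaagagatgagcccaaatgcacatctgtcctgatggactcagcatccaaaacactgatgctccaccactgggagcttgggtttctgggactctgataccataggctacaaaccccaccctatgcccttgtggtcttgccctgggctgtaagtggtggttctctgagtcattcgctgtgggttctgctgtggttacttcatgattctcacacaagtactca
Gzma: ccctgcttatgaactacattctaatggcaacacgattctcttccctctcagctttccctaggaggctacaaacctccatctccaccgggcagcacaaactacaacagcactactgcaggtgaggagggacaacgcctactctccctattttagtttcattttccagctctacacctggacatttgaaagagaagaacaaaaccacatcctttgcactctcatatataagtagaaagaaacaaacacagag
Gzmm: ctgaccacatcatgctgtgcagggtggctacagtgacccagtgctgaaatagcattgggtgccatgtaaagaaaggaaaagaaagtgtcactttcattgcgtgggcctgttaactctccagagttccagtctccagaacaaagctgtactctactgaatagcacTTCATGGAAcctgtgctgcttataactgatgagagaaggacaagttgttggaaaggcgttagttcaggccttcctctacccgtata

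Matches outside those runs are shown alone, with their flanks, since Nkg7 changed in all 3 materials and Gzmb was among the most responsive genes. Distances here are from the RefSeq start of each transcript, which differs from the end of the gene span given above. The Nkg7 match lies 220 bases before that start (chr7:43436918-43436926, plus strand), and the Gzmb match lies 38 bases into the RefSeq transcript (chr14:56262289-56262297, minus strand), which begins outside the span given for the gene.
Nkg7 match: ccccaaggtcTTCCAGGAAaccagttgtc
Gzmb match: ggcaggagttTTCATAGAAagca
Gzmc and Gzmf share one run of 24 bases in their upstream sequences, the longest shared by any pair of the 9 genes.
Shared run: tccttaagtaatgtgacgtcaatc

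Per kb of exon, the genes ranked differently in each material. In splenic T cells of Y665F mice with interleukins, Gzmb (244 CPM per kb, SD 123, n = 4) and Gzma (235, SD 47.2) exceeded Srgn (164, SD 61.9), Nkg7 (67.6, SD 33.6), Ctsw (35.7, SD 13.2) and Prf1 (12.2, SD 4.57). In WT cells Srgn led (176 CPM per kb, SD 8.88), before Gzma (95.5, SD 66.6), Gzmb (74.5, SD 22.8) and Nkg7 (73.6, SD 26.7), and the last 3 did not differ beyond their spread. WT spleen had Srgn at 95.6 CPM per kb (SD 9.61), Gzma at 31.3 (SD 5.34), Nkg7 at 22.9 (SD 2.91), Ctsw at 16.2 (SD 3.3), Prf1 at 5.5 (SD 0.824) and Gzmb at 3.15 (SD 1.34). WT CD4+ cells with the empty vector held mainly Srgn (135 CPM per kb, SD 18.7), Gzmb (17.7, SD 12.1) and Nkg7 (15.4, SD 0.338), while null cells held Nkg7 at 182 (SD 91.1) beside Srgn at 124 (SD 9.79).

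A few members stayed scarce. Gzma, a tryptase that is abundant in NK cells, reached at most 0.968 CPM in any CD4+ library, and Gzmk, another tryptase, at most 0.369 CPM. Gzmf reached at most 0.29 CPM in CD4+ cells, 1.01 CPM in splenic T cells and 0.117 CPM in spleen, where it had 10 reads over 16 libraries. Gzmc, a granzyme of strongly activated T cells, ranged up to 1.43 CPM in CD4+ cells, 2.08 CPM in splenic T cells and 0.529 CPM in spleen. Gzmm, which cleaves after methionine and leucine, ranged from 0.359 to 1.17 CPM in CD4+ cells, from 0.455 to 5.57 CPM in splenic T cells and from 1.74 to 4.68 CPM in spleen. All 10 members had at least 10 reads in each fit and were tested in all 22 comparisons. Genes are called below where the Benjamini-Hochberg adjusted p of edgeR's quasi-likelihood test was under 0.05 and the change exceeded 2-fold (a log2 fold change beyond 1).

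The first comparison asked what loss of Stat5a and Stat5b does to these genes in activated CD4+ cells. Null cells held several times more RNA of Nkg7, a membrane protein needed for granule release, and of Ctsw, a cysteine protease of cytotoxic lymphocytes. Gzmb, which cleaves after aspartate and activates caspases, and Srgn did not pass the test. Nkg7 read 112, 123 and 262 CPM in null cells with the empty vector and 14.4, 13.8 and 14.2 CPM in WT cells with it. Ctsw read 7.86, 11 and 35.4 CPM in null cells and 2.73, 1.89 and 2.3 CPM in WT cells. For both genes, every null library lay above every WT library, and null replicate 3 was the highest. Nkg7 rose 11.7-fold (log2 3.55, SE 0.43, adjusted p 2.14e-06) and Ctsw 7.84-fold (log2 2.97, SE 0.75, adjusted p 0.00731). A block for the replicate number was set within each background, so it cannot serve a comparison between backgrounds. No blocked values are given here. These 2 of 10 members compare with 4.68% of 21975 tested genes, and the members' median log2 fold change was 0.79 against -0.12 over all genes. Without null replicate 3, Ctsw fell short (log2 2.00, adjusted p 0.0853), as it did without WT replicate 2 (log2 2.84, adjusted p 0.0506), and without WT replicate 3 Gzmc passed (log2 -2.31, adjusted p 0.0322).

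Gzmb was spread widely within both backgrounds. It read 10.4, 22.7 and 58.3 CPM in null cells with the empty vector and 42.1, 26.6 and 7.41 CPM in WT cells, so the groups overlapped (log2 0.27, SE 0.89, adjusted p 0.901). Prf1 read 0.986 to 3.15 CPM in null and 0.519 to 1.21 CPM in WT cells, which also overlapped (log2 1.31, SE 0.79, adjusted p 0.305). Srgn read 252 to 295 CPM and 249 to 326 CPM. Of 24 tested genes that serve granule making and release, Lamp2, a granule membrane protein, rose (log2 1.01, SE 0.19, adjusted p 0.000395), as did Cst7, an inhibitor of granule cathepsins (log2 1.09, SE 0.19, adjusted p 0.000288). The list's median was 0.04. Of 6 tested transcription factors known to govern granzyme and perforin genes, Tbx21 (T-bet) rose 13.8-fold, from 1.18, 0.911 and 0.685 CPM in WT to 4.45, 9.86 and 23.9 CPM in null cells (adjusted p 0.000307). Cd8b1 read 20.6, 15.2 and 16.7 CPM in null and 7.39, 7.59 and 6.04 CPM in WT cells and rose (log2 1.30, SE 0.20, adjusted p 6.22e-05), while Cd8a was at or under 0.402 CPM and NK markers summed to 0.338, 0.175 and 0.905 CPM against 0.843, 0.117 and 0.332 CPM. Il2rb fell (log2 -1.27, SE 0.27, adjusted p 0.00184), and so did Ltf of the neutrophil list (log2 -3.49). In bulk RNA, fewer cells of a type and less RNA per cell cannot be told apart. Their part in the result was not tested.

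**Figure D1:**
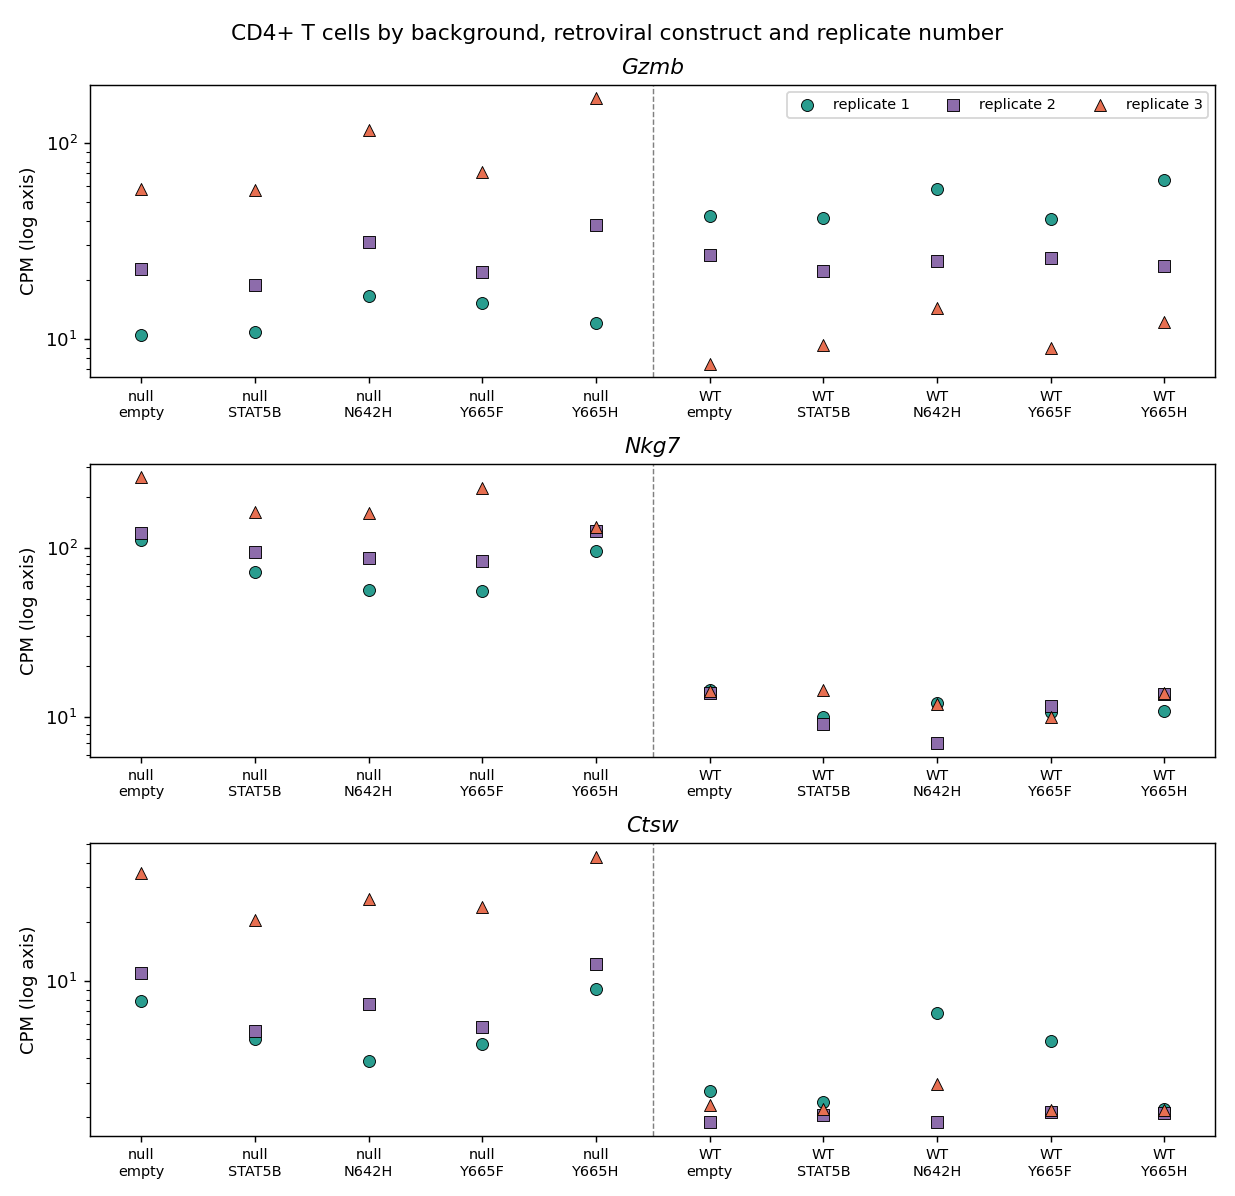
Gzmb, Nkg7 and Ctsw in CPM (log axes) in each of the 30 CD4+ libraries, by background and construct, with 1 symbol per replicate number. Nkg7 lies above 55 CPM in all null libraries and under 15 CPM in all WT libraries, whereas Gzmb overlaps between backgrounds and follows the replicate number.

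Returning STAT5B or its variants to null cells left the granule genes without a called change. Nkg7 and Ctsw were nonetheless lower than with the empty vector in 3 of 3 replicate numbers with STAT5B, N642H and Y665F, and with the replicate number as a block these differences passed the test under 2-fold. Gzmb went the other way with N642H, higher in 3 of 3 replicate numbers, and passed under 2-fold with the block as well. Nkg7 means were 166 CPM (SD 83.3, n = 3) with the empty vector, 122 (SD 91.3) with Y665F, 119 (SD 19.7) with Y665H, 110 (SD 47.3) with STAT5B and 102 (SD 54.2) with N642H, and no neighbours in that order differed beyond their spread. With STAT5B the 3 libraries read 72.7, 95.1 and 163 CPM of Nkg7, with N642H 56.7, 86.9 and 162 CPM, and with Y665F 55.9, 84 and 226 CPM. All of these stayed above the highest WT library of any construct, at 14.5 CPM; that difference was tested with the empty vector alone. By edgeR, 0 of 10 members passed against the empty vector with STAT5B (0.477% of 20113 genes), N642H (2.88%), Y665F (2.37%) or Y665H (0.0249%). At an unadjusted p under 0.05 the counts were 0, 0, 0 and 1 (Gzmc with Y665H), beside 14.8, 24.5, 22.1 and 5.08% of all genes, and DESeq2 called 0 in each. Members' medians were -0.03, 0.20, 0.05 and 0.41 on the log2 scale, and all-gene medians 0.00, 0.01, -0.02 and 0.04.

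Gzmb and Ctsw followed the replicate number more than the construct in null cells. Gzmb read 10.8, 18.9 and 57.6 CPM with STAT5B, 16.5, 31.1 and 116 CPM with N642H, 15.2, 22 and 71.2 CPM with Y665F, and 12, 38.2 and 169 CPM with Y665H. Ctsw read 5.01, 5.5 and 20.5 CPM with STAT5B, 3.88, 7.62 and 26.1 CPM with N642H, 4.72, 5.79 and 23.7 CPM with Y665F, and 9.07, 12.1 and 43.1 CPM with Y665H. Replicate 3 was the highest for both genes in all 5 null groups, as it was for Stat5a, and the part of that in these values was not tested. Against STAT5B, 0 of 10 members passed with N642H (0.0696% of genes), Y665F (0.00994%) or Y665H (0.149%), and 0 of 10 between Y665F and N642H (0% of genes). Counts at an unadjusted p under 0.05 were 0 in all of these edgeR comparisons (6.07, 4.97, 10.6 and 0.9% of all genes), and DESeq2 called 0. Members' medians were 0.17, 0.12, 0.81 and -0.32 beside -0.01, -0.02, 0.06 and 0.00 over all genes.

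Gzmb and Ctsw differed between Y665H and STAT5B cells once the replicate number was taken into account, but not between Y665H and the empty vector. Gzmb was higher with Y665H than with STAT5B in 3 of 3 replicate numbers, and so was Ctsw, but the groups overlapped. In the test by group alone, Gzmb gave a log2 fold change of 1.40 (SE 0.89, adjusted p 0.612) and Ctsw 1.12 (SE 0.79, adjusted p 0.655). With the replicate number as a block, Gzmb gave 1.02 (SE 0.20, adjusted p 0.00673) and Ctsw 1.05 (SE 0.13, adjusted p 0.000179), so that 2 of 10 members passed, against 0.577% of genes. For Y665H against the empty vector, the block gave Gzmb 0.93 (SE 0.20, adjusted p 0.0905) and Ctsw 0.22 (SE 0.13, adjusted p 0.647). Y665H replicate 3, the highest null library for both genes, also held the most Stat5a of the null libraries, at 14.6 CPM. The part of that in the result was not tested. The labels do not say what replicates of one number share. Among the other genes of the granule pathway (24 tested) and its regulators (6 tested), 0 passed in any of the 8 comparisons of null cells, by edgeR without the block. Of the cell type lists, S100a9 alone passed, for N642H against the empty vector, with 0 reads in the 3 empty-vector libraries and at most 2.26 CPM with N642H, so no fold is given. Macrophage markers had 0 called in all 22 comparisons.

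In WT cells too, the constructs left the members without a called change in the test by group alone. With the replicate number as a block, Prf1 passed for N642H, and Srgn passed the test under 2-fold for Y665F, as given with the other settings below. Gzmb read 41.4, 22.1 and 9.33 CPM with STAT5B, 58.2, 24.8 and 14.4 CPM with N642H, 40.7, 25.9 and 8.94 CPM with Y665F and 64.3, 23.5 and 12.2 CPM with Y665H. Here replicate 1 was the highest in each group, and all 5 WT groups overlapped. Nkg7 stayed between 7 and 14.5 CPM and Ctsw between 1.88 and 6.85 CPM. Against the empty vector, 0 of 10 members passed by edgeR with STAT5B (0.00975% of 20509 genes), N642H (0.985%), Y665F (0.707%) or Y665H (0.00488%). Counts at an unadjusted p under 0.05 were 1, 3, 1 and 0, beside 2.71, 10.6, 14.3 and 0.795% of all genes, and DESeq2 called 0 in each. Those with N642H were Gzma (log2 2.11, SE 0.96, adjusted p 0.448), Gzmc (log2 -1.65, SE 0.68, adjusted p 0.369) and Nkg7 (log2 -0.45, SE 0.21, adjusted p 0.461). Gzma had 1 read in each WT library with the empty vector, which is under the floor of 3 reads. Members' medians were -0.21, 0.13, 0.06 and 0.08, and all-gene medians -0.02, -0.04, -0.08 and -0.01. In these 4 comparisons 0 of 24 pathway genes and 0 of 6 regulators passed.

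Whether N642H and Y665F act differently in null and WT cells was tested as an interaction, with null minus WT as its sign. For N642H, 0 of 10 members passed by edgeR (0.341% of 21975 genes), 1 had an unadjusted p under 0.05 (10.3% of genes), and DESeq2 called 0. That member was Gzmc, whose mean lay above the empty vector in null cells (0.453 against 0.196 CPM) and lay under it in WT cells (0.226 against 0.69 CPM), with an interaction of 2.84 (SE 1.09, adjusted p 0.36). For Y665F, 0 of 10 passed (0.419% of genes), 0 at an unadjusted p under 0.05 (9.32%) and 0 by DESeq2. With the replicate number as a block, Ctsw passed for both variants and Gzmc for N642H, as given with the other settings below. Members' medians were -0.16 and -0.24 beside 0.11 and 0.07 over all genes. Of the regulators, Id2 passed for Y665F (log2 1.38, SE 0.32, adjusted p 0.0392).

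Across the 10 CD4+ groups, the order of Gzmb ran from null Y665H (mean 73.2 CPM, SD 84.2) and null N642H (54.7, SD 54) to WT STAT5B (24.3, SD 16.2), with no neighbours apart beyond their spread. Prf1 ran from 3.62 CPM (SD 3.31) in null Y665H to 0.822 CPM (SD 0.438) in WT STAT5B and Srgn from 401 CPM (SD 125) in WT Y665F to 254 CPM (SD 34.1) in null STAT5B, again without a gap beyond spread. Nkg7 alone among members split by background without overlap, between null N642H (102 CPM, SD 54.2) and WT empty (14.1 CPM, SD 0.309).

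In splenic T cells given IL-2 and IL-7, the granzymes Gzma and Gzmb ranked Y665F above WT, with Y665H lowest. Y665F cells held 2.48-fold more Gzma and 3.31-fold more Gzmb than WT cells, while Prf1, Nkg7, Srgn and Ctsw did not pass. Gzma read 301, 209, 240 and 194 CPM in Y665F cells and 196, 75.9, 52.6 and 60.5 CPM in WT cells. Gzmb read 608, 276, 211 and 305 CPM in Y665F cells and 129, 128, 113 and 59.7 CPM in WT cells. The groups did not overlap for Gzmb, whereas for Gzma WT library 1 reached above the lowest Y665F library. Gzma rose by log2 1.31 (SE 0.31, adjusted p 0.0271) and Gzmb by log2 1.73 (SE 0.40, adjusted p 0.0268), so 2 of 10 members passed against 1.32% of 22295 genes, with medians of 0.49 over the members and 0.09 over all genes. Leaving out 1 library ended these calls in several cases. Both were lost without WT replicate 2 (log2 1.21, adjusted p 0.114, and log2 1.81, adjusted p 0.0691), without WT replicate 4 (log2 1.27, adjusted p 0.0663, and log2 1.63, adjusted p 0.0935) and without Y665F replicate 4 (log2 1.39, adjusted p 0.0666, and log2 1.78, adjusted p 0.0734). Gzmb was also lost without Y665F replicate 1 (log2 1.33, adjusted p 0.053), and without WT replicate 1 Gzma gave log2 1.92.

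Other members were alike or variable between Y665F and WT cells. Prf1 read 46, 30.7, 17.1 and 32.7 CPM in Y665F and 28.2, 20.9, 34.5 and 17.4 CPM in WT cells (log2 0.36, SE 0.29, adjusted p 0.523). Nkg7 read 97, 70.9, 23.6 and 55.8 CPM in Y665F and 50.2, 63.2, 103 and 52.8 CPM in WT cells (log2 -0.09, SE 0.32, adjusted p 0.904). For both, Y665F library 3, the one rich in B cell and erythroid markers, was the lowest of its group, and the groups overlapped. Of the regulators, Runx3 rose (log2 1.23, SE 0.30, adjusted p 0.039; list median 0.56), and 0 of 24 pathway genes passed in edgeR (list median 0.13). NK markers summed to 149, 126, 118 and 103 CPM in Y665F cells (7 genes, most abundant Klrb1c or Klre1, Klra4 and Klra8 at 0), and 0 of 5 tested passed. CD8 markers summed to 1230, 1030, 514 and 807 CPM in Y665F and 815, 1010, 1160 and 883 CPM in WT cells (Cd8a the more abundant), with 0 of 2 called, and Cd4 fell (log2 -1.14, SE 0.29, adjusted p 0.0412). T cell markers summed to 1060 to 2410 CPM in Y665F and 2440 to 2790 CPM in WT cells, without overlap, and 0 of 9 were called (list median -0.82). In Y665F cells 4 of 6 neutrophil markers were higher (S100a8 log2 4.01, S100a9 3.68, Ngp 3.47, Ltf 3.32), with sums of 69.2, 69.1, 294 and 69.7 CPM against 12.7, 6.04, 8.43 and 12.4 CPM, as were Slc4a1 of the erythroid list (log2 5.51) and Pax5 of the B cell list. Y665F erythroid sums ran from 6.69 to 1080 CPM and B cell sums from 17.5 to 662 CPM, each highest in library 3. WT sums were 5.78 to 37 and 10.3 to 85 CPM. The part of these lists in the result was not tested.

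Y665H splenic T cells with interleukins held less Gzma and Gzmb than WT cells in every library, although no gene passed the test across the genome. Gzma read 21.9, 21.8 and 33.5 CPM and Gzmb 1.89, 19.6 and 21 CPM, the first of these from 7 reads. Prf1 read 16.2, 12.3 and 13.2 CPM and Nkg7 37.1, 37.3 and 33.4 CPM. All 3 Y665H libraries lay under all 4 WT libraries for each of these 4 genes, and for the scarce Gzmc. How many of all genes separate in this way was not counted. By edgeR, 0 of 10 members passed (0% of 22295 genes), 4 of 10 had an unadjusted p under 0.05 (4.81% of genes), and DESeq2 called 2 (0.126%). Gzma gave log2 -1.84 (SE 0.36, adjusted p 0.0886) and Gzmb log2 -2.87 (SE 0.49, adjusted p 0.058), and DESeq2 gave -1.75 (SE 0.37, adjusted p 0.00371) and -2.77 (SE 0.63, adjusted p 0.0102). The members' median was -0.65 and that of all genes -0.12. Gzma passed without WT replicate 3 (log2 -2.06, adjusted p 0.031) or WT replicate 4 (log2 -1.99, adjusted p 0.0431), and read log2 -1.23 (adjusted p 0.11) without WT replicate 1. Gzmb passed without WT replicate 4 (log2 -3.06, adjusted p 0.0351) or Y665H replicate 1 (log2 -2.37, adjusted p 0.0192).

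Ctsw did not pass in Y665H cells, at 311, 55 and 95.6 CPM against 49.3, 81, 146 and 78.8 CPM in WT cells, and its groups overlapped (log2 0.84, SE 0.42, adjusted p 0.943). Its size rests on the shallow Y665H library 1, without which the log2 fold change was -0.20. Srgn read 122, 388 and 328 CPM in Y665H and 359, 396, 388 and 404 CPM in WT cells. Of the pathway and regulator genes, 0 of 24 and 0 of 6 passed in edgeR (list medians -0.22 and -0.25), and so did 0 genes of each cell type list. Neutrophil markers summed to 20.6 to 72.8 CPM in Y665H and 6.04 to 12.7 CPM in WT cells, without overlap (list median 1.99). NK markers summed to 19.5, 46.4 and 57.6 CPM in Y665H cells (most abundant Ncr1, Klri2 or Klra7), CD8 markers to 772, 588 and 759 CPM and memory CD8 markers to 249, 265 and 294 CPM against 461, 540, 770 and 389 CPM in WT cells (Il2rb the most abundant). Their part in the result was not tested. If the summed library was kept, Gzma (log2 -1.87, adjusted p 0.0218) and Gzmb (adjusted p 0.00664) passed, but it repeats reads of 2 others. With it in place of those 2, neither Gzma (log2 -1.76, adjusted p 0.34) nor Gzmb (log2 -2.82, adjusted p 0.0661) passed.

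Set against each other, Y665F and Y665H cells differed in both main granzymes. Gzma was 8.9-fold (log2 3.15, SE 0.38, adjusted p 5.43e-05) and Gzmb 24.2-fold (log2 4.59, SE 0.53, adjusted p 5.43e-05) higher in Y665F cells, and all 4 Y665F libraries lay above all 3 Y665H libraries for both. These 2 of 10 members compare with 2.5% of genes, and medians were 0.74 for the members and 0.15 for all genes. Prf1 did not overlap between the groups either (log2 1.17, SE 0.34, adjusted p 0.063), and it passed without Y665F replicate 3 (log2 1.38, adjusted p 0.0133). Nkg7 overlapped through Y665F library 3 (log2 0.78, SE 0.36, adjusted p 0.31), and Ctsw overlapped and did not pass (log2 -1.21, SE 0.42, adjusted p 0.141, and -0.16 without Y665H library 1). These comparisons with WT and with each other share libraries, so they are not independent.

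A few genes around the granule also differed between Y665F and Y665H cells. Of 24 pathway genes 2 passed: Cst7 (log2 1.37, SE 0.32, adjusted p 0.0179) and Fasl, the death ligand (log2 1.40, SE 0.35, adjusted p 0.0277), rose, and of 6 regulators Tbx21 rose (log2 1.81, SE 0.37, adjusted p 0.00718), with list medians of 0.25 and 0.92 beside 0.15 over all genes. Of 5 tested NK markers, 2 rose, Klrb1c (log2 1.96) and Klre1 (log2 1.78), and of 7 memory CD8 markers 3 rose, Klrc1 (log2 1.80), Ccl5 (log2 1.67) and Il2rb (log2 1.65), with memory CD8 sums of 1030, 817, 345 and 675 CPM in Y665F cells. Neither CD8 marker passed, while Cd28 of the T cell list fell (log2 -1.56) and Cd22 and Pax5 of the B cell list were higher (log2 3.67 and 4.82). B cell sums were 17.5 to 662 CPM in Y665F cells, highest in library 3, and 11.6 to 29.1 CPM in Y665H cells. The part of any of these lists in the result was not tested.

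**Figure D2:**
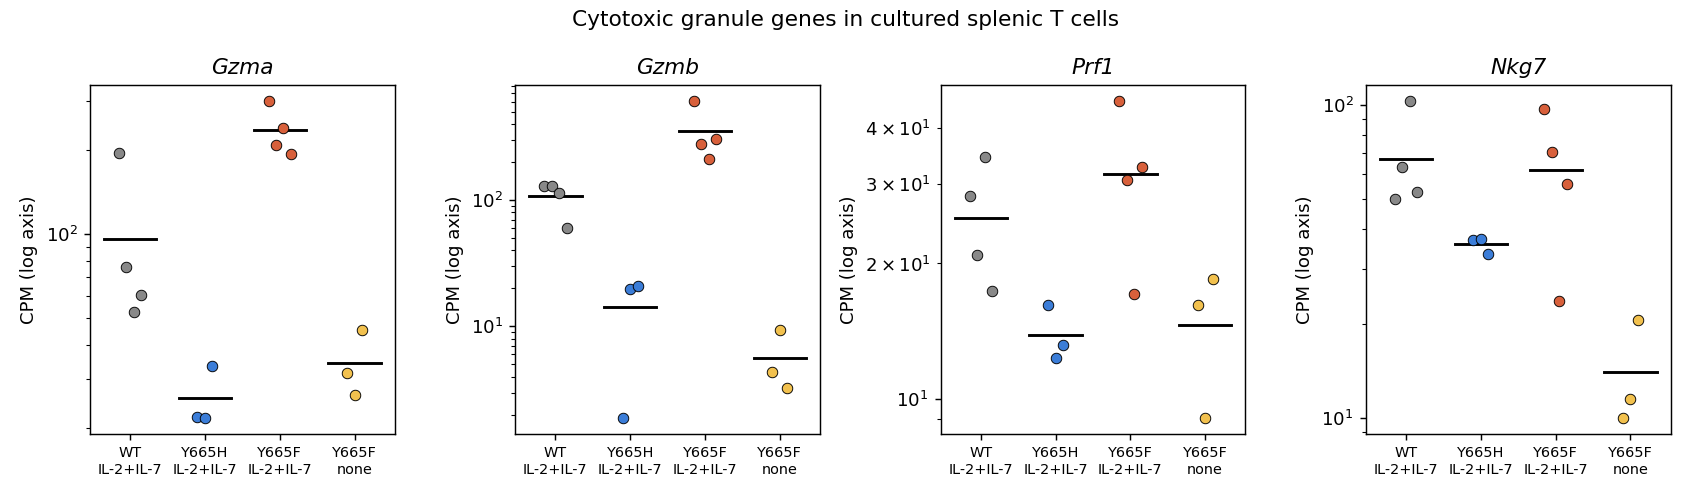
Gzma, Gzmb, Prf1 and Nkg7 in CPM (log axes) in the splenic T libraries, with 1 point per library and a bar at the group mean. Gzmb lies above 200 CPM in Y665F cells with interleukins and under 10 CPM in Y665F cells without them.

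Y665F cells with and without interleukins differed in 3 members, and a difference in culture time cannot be told apart from interleukins here. With IL-2 and IL-7 rather than none, Gzmb rose 61.9-fold, Gzma 6.81-fold and Nkg7 4.45-fold. Without interleukin, Gzmb read 4.36, 9.39 and 3.25 CPM, Gzma 31.6, 26.4 and 45.3 CPM and Nkg7 10, 11.5 and 20.5 CPM. Every library with interleukins lay above every library without for all 3 genes. The test gave log2 5.95 (SE 0.56, adjusted p 2.85e-07) for Gzmb, 2.77 (SE 0.36, adjusted p 2.71e-05) for Gzma and 2.16 (SE 0.37, adjusted p 0.00067) for Nkg7. These 3 of 10 members compare with 2.63% of genes, with medians of 0.99 and -0.13. Prf1 read 16.2, 9.07 and 18.5 CPM without interleukin and overlapped (log2 1.13, SE 0.33, adjusted p 0.0631), and Ctsw, at 17.3, 30.9 and 29.6 CPM, did not overlap (log2 1.39, SE 0.44, adjusted p 0.0929). Without Y665F replicate 3 both passed, Prf1 at log2 1.33 (adjusted p 0.00725) and Ctsw at 1.63 (adjusted p 0.0151). Srgn, the granule scaffold, read 328, 266 and 321 CPM without and 540, 392, 254 and 255 CPM with interleukins and did not pass (log2 0.24, SE 0.30, adjusted p 0.729).

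Of 24 pathway genes, 3 rose with interleukins: Fasl (log2 1.48, SE 0.34, adjusted p 0.0119), the chaperone Calr (log2 1.44, SE 0.27, adjusted p 0.00198) and Lyst, which acts in granule sizing (log2 1.35, SE 0.33, adjusted p 0.0182). The list's median was 0.40, and 0 of 6 regulators passed in edgeR (median 0.75). NK markers summed to 41.6, 36.6 and 47.7 CPM without interleukin (most abundant Klre1), and 4 of 5 tested rose with it: Ncr1 (log2 2.36), Klrb1c (1.86), Klra7 (1.73) and Klri2 (1.70). CD8 markers summed to 406, 517 and 669 CPM without, and Cd8a rose (log2 1.09), as did Il2rb (log2 2.29) and Ly6c2 (log2 1.35) of the memory CD8 list, whereas Klrd1 fell (log2 -1.83). Cd28 and Cd40lg fell (log2 -1.54 and -1.57), and the part of any of these lists in the result was not tested. Scaling bears on size here, since the median of all genes moved by -0.18 with library size alone and by -0.14 with DESeq2 for this comparison, by 0.12 and 0.13 for Y665F against WT and by 0.13 and 0.14 for Y665H against WT.

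Among the 4 splenic T groups, Gzmb ran from Y665F with interleukins (mean 350 CPM, SD 176) through WT (107, SD 32.7) and Y665H (14.1, SD 10.6) to Y665F without (5.66, SD 3.27), and the last 2 did not differ beyond their spread. Gzma followed the same first steps, at 236 CPM (SD 47.5) and 96.1 CPM (SD 67), before Y665F without interleukin (34.5, SD 9.77) and Y665H (25.7, SD 6.7), which overlapped. Prf1 ran from 31.6 CPM (SD 11.8) in Y665F and 25.3 CPM (SD 7.63) in WT to 14.6 CPM (SD 4.9) without interleukin and 13.9 CPM (SD 2.07) in Y665H, and every pair of neighbours overlapped. Nkg7 ran from WT (67.3, SD 24.4) and Y665F (61.8, SD 30.7) to Y665H (35.9, SD 2.18) and Y665F without interleukin (14, SD 5.69). Gzmk read 0.612 to 8.94 CPM and Gzmm 0.455 to 5.57 CPM over the 14 libraries, and neither passed in any of the 4 comparisons. Their lowest group means were 3.67 and 2.09 CPM, and their highest 5.24 and 3.41 CPM.

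In unstimulated spleen, Gzmb, Nkg7 and Ctsw passed the test against WT in both mutants, higher in Y665F and lower in Y665H. With the replicate number as a block, Gzmb and Ctsw passed in neither mutant, as given with the other settings below. Y665F spleens held 2.77-fold more Gzmb and 2.06-fold more Gzmm, and smaller gains in Nkg7 and Ctsw passed the test but not the 2-fold minimum (4 of 10 members and 12.2% of genes passed the test at any size). Gzmb read 7.11, 3.02, 4.93 and 3.06 CPM in WT and 8.42 to 16.7 CPM (median 12.3, n = 7) in Y665F spleens. Gzmm read 1.74, 1.87, 2.7 and 2.07 CPM in WT and 3.86 to 4.68 CPM (median 4.36) in Y665F spleens. For both, all 7 Y665F libraries lay above all 4 WT libraries. Gzmb rose by log2 1.47 (SE 0.26, adjusted p 0.00163) and Gzmm by log2 1.04 (SE 0.14, adjusted p 0.000297), so 2 of 10 members passed against 1.2% of 19418 genes, with medians of 0.78 and -0.00. Nkg7 read 17 to 23.1 CPM in WT and 27.8 to 42.4 CPM (median 37.5) in Y665F spleens, without overlap (log2 0.80, SE 0.12, adjusted p 0.000437). Ctsw read 24.8, 25.6, 36.8 and 34.9 CPM in WT and 35.8 to 63.7 CPM (median 53.7) in Y665F spleens (log2 0.75, SE 0.15, adjusted p 0.00356), and 1 WT library reached into the Y665F range. Without WT replicate 1, Gzmm came under the 2-fold minimum (log2 0.97, adjusted p 0.00209).

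Gzma and Prf1 did not pass in Y665F spleen. Gzma read 37.7, 25, 33.2 and 29.9 CPM in WT and 9.93 to 43.8 CPM (median 26.3) in Y665F spleens, a range that contained every WT library (log2 -0.16, SE 0.33, adjusted p 0.795). Prf1 read 11.5, 13.3, 15.8 and 15.9 CPM in WT and 12.1 to 22.4 CPM (median 19.2) in Y665F spleens (log2 0.35, SE 0.15, adjusted p 0.138). Srgn stayed within 171 to 241 CPM and Gzmk within 0.325 to 1.82 CPM over the 16 spleens, and neither passed in any spleen comparison. The lists around them had 0 of 20 pathway genes and 0 of 6 regulators called by edgeR (medians -0.05 and 0.32). Under 2-fold, the regulators Tbx21 (log2 0.64), Hopx (0.44) and Runx3 (0.43) passed the test, all higher. Of the pathway, Cst7 (0.54), Rab27a (0.28), Stxbp2 (0.25) and Igf2r (0.19) passed higher, and Ctsl (-0.43) and Serpinb6b (-0.37) lower. Klri2 of 6 tested NK markers fell (log2 -1.09, SE 0.19, adjusted p 0.00179), with NK sums of 105, 77.4, 92.9 and 86.5 CPM in WT and 26.2 to 79.4 CPM in Y665F spleens (most abundant Ncr1 or Klrb1c, Klra4 at 0). CD8 markers summed to 168, 180, 162 and 185 CPM in WT and 199 to 303 CPM in Y665F spleens (Cd8a the more abundant, 0 of 2 called), and memory CD8 markers to 205 to 240 CPM and 278 to 383 CPM (0 of 7). Of the myeloid lists, 4 of 6 neutrophil markers were higher (Elane log2 1.97), with sums of 187 to 301 CPM and 363 to 893 CPM, as were 2 of 5 basophil and mast cell markers, Prss34 (log2 2.37) and Mcpt8 (log2 1.68). T cell, B cell, erythroid and macrophage lists had 0 called. Under 2-fold, 6 of 9 T cell markers passed the test, from Bcl11b (log2 0.56) to Cd6 (log2 0.87), while Cd3g, Cd28 and Cd2 did not (list median 0.60). Both CD8 markers passed in that way (Cd8b1 log2 0.76, Cd8a 0.50), and so did 4 of 7 memory CD8 markers, from Cxcr3 (log2 0.60) to Il2rb (log2 0.95), but not Klrd1 (-0.03), Klrc1 (-0.02) or Klrc2 (-0.49). Lower markers that passed under 2-fold were Ncr1 of the NK list (log2 -0.86) and Ms4a1 (-0.47) and Cd79b (-0.31) of the B cell list. Their part in the result was not tested.

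Y665H spleens held less Gzma than every WT spleen, a 3.12-fold difference, and less Gzmc. Nkg7, Gzmb, Prf1 and Ctsw also fell, by less than 2-fold (6 of 10 members and 19.8% of genes passed the test at any size). Gzma read 5.2, 13.9, 13, 12.3 and 5.81 CPM and Gzmb 1.22, 3.22, 2.5, 2.23 and 2.07 CPM in Y665H spleens. Nkg7 read 12.9, 14.9, 15.2, 13.2 and 12.3 CPM and Prf1 9.17, 11.4, 11.1, 9.08 and 8.82 CPM. Gzmc had 0, 3, 2, 1 and 1 reads in Y665H and 7, 2, 6 and 6 reads in WT spleens. Gzma, Nkg7 and Prf1 did not overlap with WT, whereas Gzmb and Gzmc did. Gzmk, at 0.642 to 0.981 CPM in Y665H and 1.08 to 1.37 CPM in WT spleens, did not overlap either, but it did not pass. How many of all genes separate in this way was not counted. Gzma gave log2 -1.64 (SE 0.36, adjusted p 0.00485) and Gzmc log2 -1.97 (SE 0.52, adjusted p 0.0128), so 2 of 10 members passed, both lower, against 4.37% of genes, with medians of -0.56 and 0.00. Gzmb just missed the 2-fold minimum (log2 -0.99, SE 0.28, adjusted p 0.017), and Nkg7 (log2 -0.61, SE 0.12, adjusted p 0.00314), Prf1 (log2 -0.51, SE 0.16, adjusted p 0.0307) and Ctsw (log2 -0.50, SE 0.15, adjusted p 0.0286) passed the test alone. Gzmb passed without WT replicate 2 (log2 -1.11), WT replicate 4 (log2 -1.16), Y665H replicate 2 (log2 -1.17) or Y665H replicate 3 (log2 -1.03), and Gzmc was lost without WT replicate 1 (log2 -1.71, adjusted p 0.0519).

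Cell type markers moved beside these genes in Y665H spleen. NK markers summed to 35.4, 47.5, 43.8, 46.1 and 29.4 CPM (most abundant Ncr1), and 4 of 6 tested fell: Klrb1c (log2 -1.34), Klre1 (-1.28), Klra7 (-1.20) and Ncr1 (-1.10). Memory CD8 markers summed to 168, 174, 163, 151 and 130 CPM, with Klrc2 (log2 -1.13) and Klrd1 (log2 -1.11) lower. CD8 markers summed to 108, 91.5, 87.8, 95.5 and 76.4 CPM, and Cd8a (log2 -0.89, adjusted p 0.000392) and Cd8b1 (adjusted p 0.000654) both fell without passing the 2-fold minimum. So did 6 of 9 T cell markers, from Cd28 (log2 -0.47) to Cd3g (log2 -0.63), while Lck, Cd5 and Cd6 did not pass (list median -0.50). Neutrophil markers were higher for 6 of 6 (Elane log2 2.26), as were Slc4a1 (log2 2.41) and Klf1 (log2 1.87) of the erythroid list, whose median was 1.88, and Prss34 (log2 1.33). Of 20 pathway genes and 6 regulators, 0 were called by edgeR. Under 2-fold, the regulators Eomes (log2 -0.79), Hopx (-0.43) and Id2 (-0.39) passed the test, all lower. The pathway genes Fasl (-0.75), Tnfsf10 (-0.45), Cst7 (-0.40), Serpinb9 (-0.32) and Lyst (-0.25) also passed lower, and Vamp8 (0.33) passed higher. The part of these lists in the result was not tested.

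**Figure D3:**
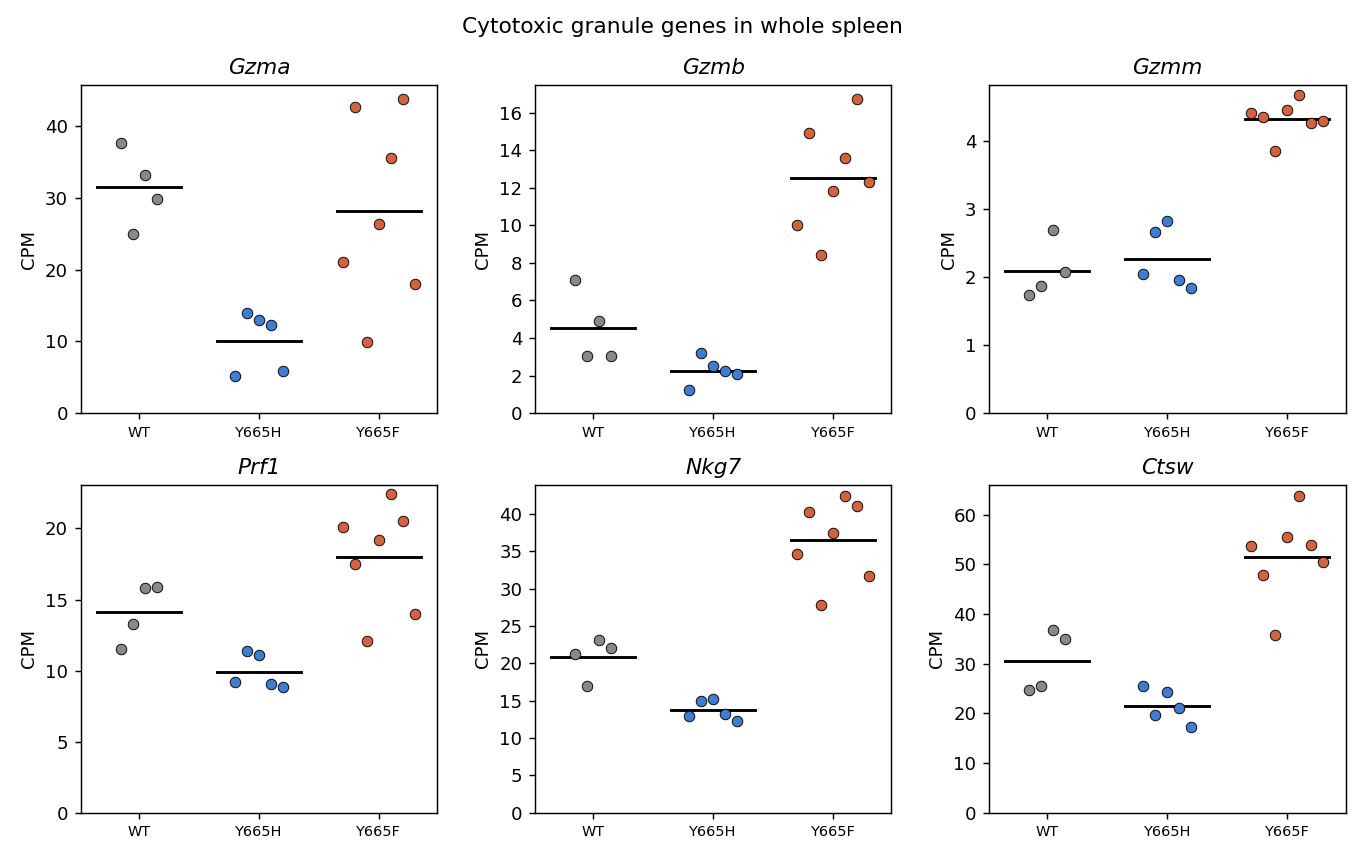
Gzma, Gzmb, Gzmm, Prf1, Nkg7 and Ctsw in CPM in each spleen library, with a bar at the group mean. Nkg7 and Gzmb show all Y665F libraries above and most or all Y665H libraries under WT, Gzmm is higher in Y665F alone, and Gzma is lower in Y665H alone.

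Between the mutants, 5 of 10 members differed in spleen, all higher in Y665F, against 5.28% of genes. Gzmc was among them (log2 3.04, SE 0.44, adjusted p 0.000118), but its size is uncertain, as it rests on 7 reads over 5 Y665H libraries and on 6 to 14 reads per Y665F library. Gzmb (log2 2.47, SE 0.25, adjusted p 3.66e-06), Nkg7 (log2 1.41, SE 0.11, adjusted p 2.05e-07) and Ctsw (log2 1.26, SE 0.14, adjusted p 9.26e-06) were higher in 7 of 7 Y665F libraries than in any of the 5 Y665H libraries. Gzma also rose (log2 1.48, SE 0.33, adjusted p 0.00309), with overlap at its lower end. Gzmm (log2 0.93, SE 0.13, adjusted p 9.38e-05) and Prf1 (log2 0.86, SE 0.14, adjusted p 0.000418) passed the test under 2-fold, which makes 7 of 10 members beside 25.8% of genes, and Gzmm passed fully without Y665H replicate 3 (log2 1.03). The members' median was 1.09 and that of all genes -0.01. The 3 spleen comparisons share libraries.

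Both CD8 markers rose between Y665H and Y665F spleen (Cd8b1 log2 1.75, Cd8a log2 1.39), with 3 of 7 memory CD8 markers (Il2rb log2 1.42, Ccl5 1.30, Klrd1 1.09), 5 of 9 T cell markers (Cd3e log2 1.44, Bcl11b 1.18, Cd3d 1.11, Lck 1.06) and 1 of 6 NK markers (Klre1 log2 1.01). T cell sums were 771 to 1030 CPM in Y665F and 406 to 628 CPM in Y665H spleens, with 592 to 697 CPM in WT. Eomes, of 6 regulators, rose as well (log2 1.01), and 0 of 20 pathway genes were called by edgeR (median 0.09). Prss34 and Mcpt8 rose (log2 1.04 and 1.06), and Slc4a1, Klf1 and Alas2 fell (log2 -2.04, -1.88 and -1.80), with an erythroid list median of -1.96. Ordered by NK sum, the 7 Y665F spleens (26.2, 38.2, 43, 60, 67, 71.8 and 79.4 CPM) had 9.93, 18, 21.1, 26.3, 35.5, 43.8 and 42.6 CPM of Gzma. Between WT and Y665F the mean NK sum was 90.4 and 55.1 CPM, while Gzma did not pass. The part of cell numbers in these differences was not tested.

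**Figure D4:**
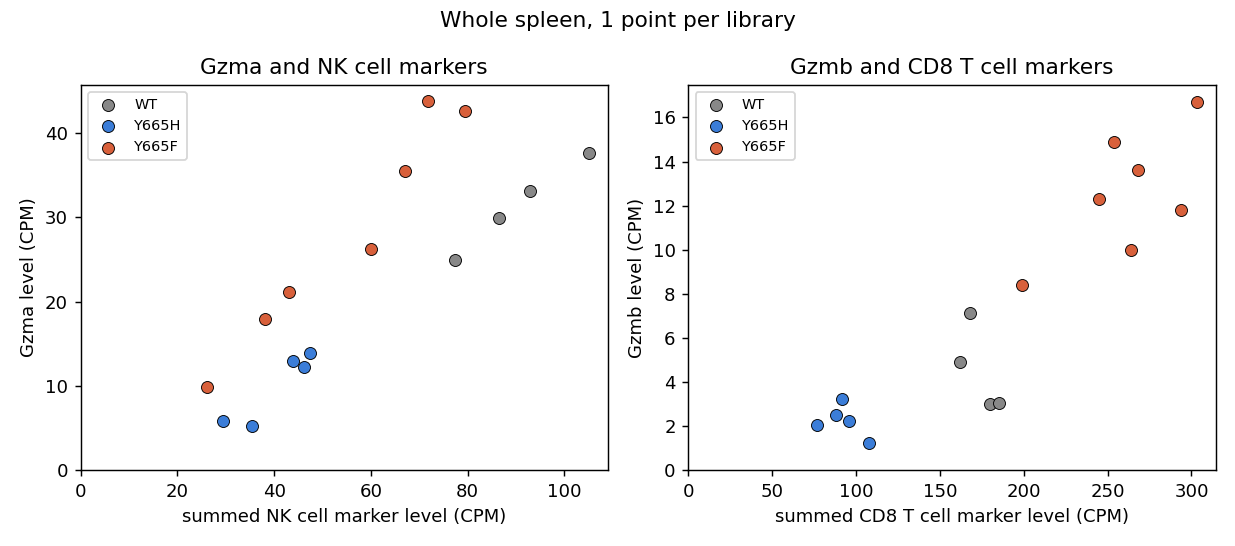
Gzma against the summed NK cell markers and Gzmb against the summed CD8 T cell markers, in CPM, with 1 point per spleen library coloured by genotype. All 7 Y665F spleens exceed all WT spleens in CD8 sum and in Gzmb.

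In spleen, then, the order of Gzmb was Y665F (mean 12.5 CPM, SD 2.81), WT (4.53, SD 1.93) and Y665H (2.25, SD 0.725), and that of Nkg7 36.5 (SD 5.37), 20.9 (SD 2.66) and 13.7 CPM (SD 1.28). Gzma had WT first (31.5 CPM, SD 5.37), with Y665F (28.2, SD 12.9) within its spread, and Y665H last (10, SD 4.19). Gzmm had Y665F first (4.33 CPM, SD 0.249), and Y665H (2.27, SD 0.441) and WT (2.09, SD 0.424) did not differ beyond their spread.

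**Figure D5:**
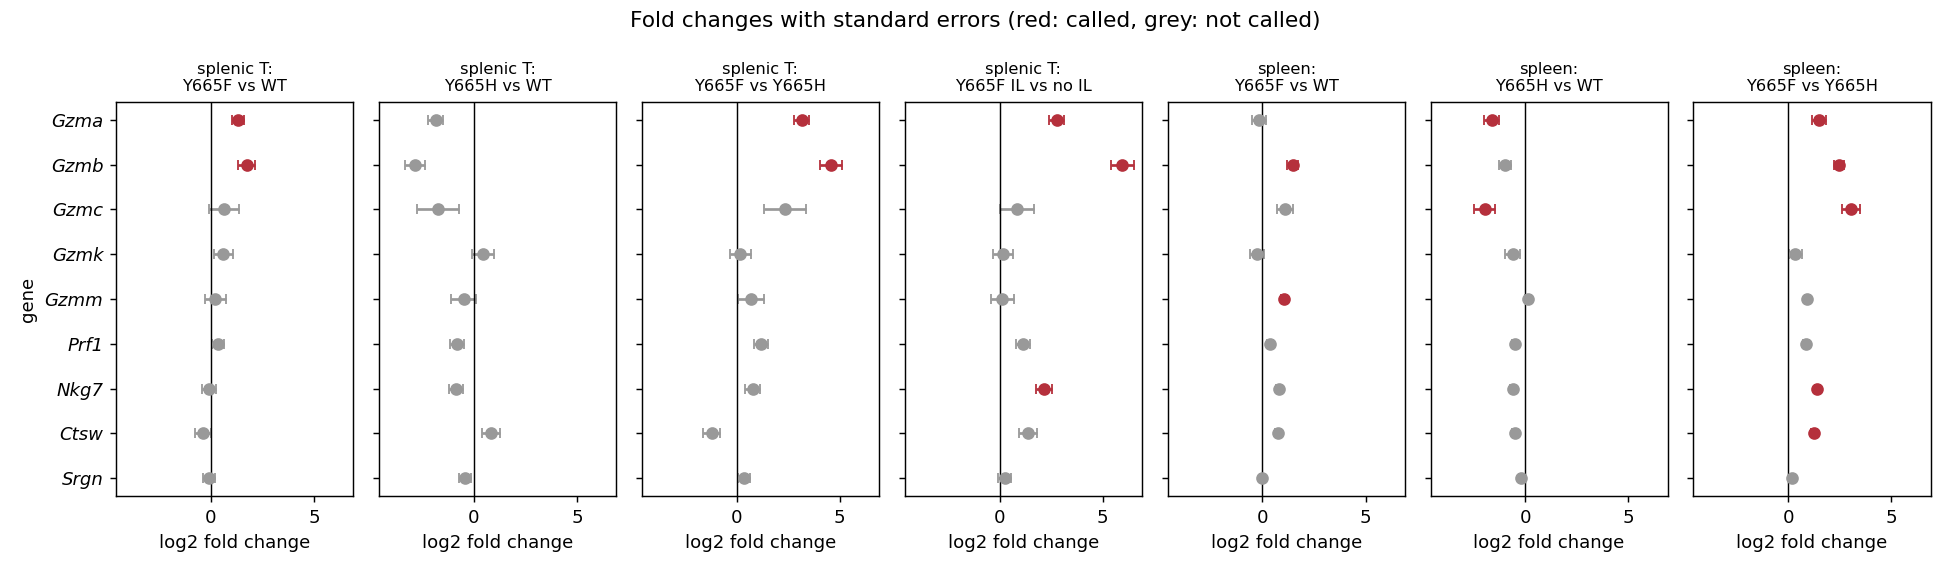
Log2 fold change with its standard error for 9 members in the 4 splenic T and 3 spleen comparisons, with called values in red. Gzmb is positive wherever Y665F or interleukins are compared and negative for Y665H against WT.

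The genes whose levels followed the main members most closely were found by Pearson's r of log2(CPM + 1), as a description. Over the 16 spleens and 14247 genes of at least 1 CPM, Gzmb was most like Nkg7 and Osbpl3 (r = 0.962 each) and Samd3 (0.941). Gzma was most like Klre1 of the NK list (0.965), Klrc1 of the memory CD8 list (0.952) and Klrk1, which is on neither list (0.946). Prf1 was most like S1pr5 (0.927), Atp6v0a2 (0.924) and Samd3 (0.920). The 3 genotypes shape these values, since groups differ in level. Over the 10 CD4+ group means, the genes most like Gzmb included Ctla2b (0.961) and Dntt (0.946), and Prf1 was most like Sdc3 (0.955), Ly6c1 (0.953) and Kctd11 (0.950). Gzma, at a mean of 0.214 CPM there, rests on few reads, and no likeness is given for it.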

How the data were processed

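The gene counts deposited by the authors were used as they are: TruSeq stranded total RNA reads trimmed with Trimmomatic 0.36, aligned to mm10 with STAR and counted with HTSeq 0.9.1. The strand setting and annotation of the counting are not given. Reads not assigned to a gene made up 28.4 to 36.9% in CD4+, 63.9 to 85.7% in splenic T and 62.8 to 69.4% in spleen libraries. Among splenic T cells with interleukins they made up 63.9 to 72.6% in WT, 68.7 to 71.9% in Y665H and 67.6 to 84% in Y665F libraries. Y665F libraries without interleukin had 77.7 to 85.7%. The part of this in the splenic T results was not tested.

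Levels are CPM scaled by TMM within each material. Tests used edgeR 4.0.16 (quasi-likelihood, R 4.3.3, limma 3.58.1) on 5 fits: null CD4+, WT CD4+, both, splenic T and spleen. Genes needed 10 reads over the fit, and p was adjusted over all genes of the fit by Benjamini-Hochberg. Genes were called where that p was under 0.05 and the level moved more than 2-fold. Overlap of libraries between groups was looked at for members and marker sums alone, so no share over all genes is given for it. The code was tested on simulated data. The splenic T fit was planned with 15 libraries and holds 14, because 1 is the sum of 2 others.

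The model held the group without the replicate number. Within replicate numbers, deviations from the group mean correlated above 0.1 in 30 of 30 pairs of null and 29 of 30 of WT CD4+ libraries, but in 4 of 19 of splenic T and 4 of 13 of spleen. Alternatives were DESeq2 1.42.0, RLE scaling, library size alone, no count filter, no fold minimum, a replicate block and leaving out each library.

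All members are named. Of the other lists (granule pathway, regulators, NK, CD8, memory CD8, T, CD4, B, neutrophil, erythroid, macrophage, basophil and mast cell), genes called are named, up to 4 per list and comparison, with defining markers and some spleen markers that passed under 2-fold. A gene of the erythroid list and some likeness results are not reported here. Members and lists were chosen with earlier results of these data known.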

Additional observations from a re-analysis of the deposited data

Results flagged for a closer look

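For each of 50 pairs of a member and a group, Dixon's ratio of the gap to the range was compared with its critical value, which picks out a library in about 1 in 20 groups by chance. In WT splenic T cells with interleukins, Gzma in replicate 1 was far from the others (ratio 0.837, just past the critical value), at 196 CPM beside 75.9 CPM for the next. That library also had the highest NK cell marker sum. In WT spleen, Gzmf in replicate 2 gave a ratio of 1 from 1 read (0.036 CPM), with 0 reads in the other libraries. In Y665H spleen, Gzmf in replicate 4 gave a ratio of 1 from 4 reads (0.117 CPM). The causes were not tested.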

How the results depend on the processing

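Of 1440 values of members under other settings, 1403 kept their side of the threshold, 35 were newly called and 2 were lost. Of 1620 values with 1 library left out, 1596 kept it, 13 were newly called and 11 were lost. No called value reversed. Alternatives that keep, replace or leave out particular splenic T libraries were added after seeing the data. The causes of the changes below were not tested.

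With the replicate number as a block, 2 members passed for Y665H against STAT5B in null cells (0.577% of genes) and 1 for N642H in WT cells (Prf1, log2 1.13, adjusted p 0.0451, beside 2.59% of genes). It called 2 for the N642H interaction (Ctsw -1.21, 0.0106, and Gzmc 2.69, 0.0395, beside 1.57%) and 1 for the Y665F interaction (Ctsw -1.05, 0.0337, beside 1.34%). Without the block those shares were 0.149, 0.985, 0.341 and 0.419%. The block gave 1 for Y665H against WT splenic T cells (Gzmb -2.96, 0.0374, beside 0.00897% of genes). In spleen it gave 1 for Y665F against WT (Gzmb lost, 1.34, 0.0516, beside 0.53%) and 1 for Y665H against WT (Gzmc lost, -1.90, 0.0749, beside 3.33%). Apart from null against WT cells, the block changed no other call. There it was set within each background, so its values depend on the reference replicates and are not given. Against WT spleen, the block also left differences under 2-fold short of the test for Ctsw (Y665F 0.74, 0.0642, Y665H -0.50, 0.103) and Prf1 (Y665H -0.53, 0.0838). Gzmb in Y665H spleen (-1.03, 0.0645) fell short as well. In WT CD4+ cells against the empty vector, the block gave a difference under 2-fold for Srgn (Y665F 0.40, 0.0463). In null cells against the empty vector, it gave differences under 2-fold for Gzmb (N642H 0.67, 0.0204), Nkg7 (STAT5B -0.57, 0.0383, N642H -0.75, 0.00286, Y665F -0.59, 0.0175) and Ctsw (-0.82, 0.00075, -0.66, 0.00117, -0.78, 0.000357).

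For Y665H against WT splenic T cells, DESeq2 and no filter each called 2 (no filter: Gzma -1.87, 0.0289, and Gzmb -2.90, 0.0103). Prf1 passed for Y665F against Y665H splenic T cells under RLE (1.16, 0.0439), DESeq2 (1.16, 0.00708) and no filter (1.20, 0.0454). Gzmb passed for Y665H against WT spleen under library size alone (-1.06, 0.00911) and DESeq2 (adjusted p 0.00233). With no fold minimum, 4 and 6 members passed for Y665F and Y665H against WT spleen, beside 12.2 and 19.8% of all genes.

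With each library left out, null against WT CD4+ cells gave 1 to 3 members. Splenic T cells gave 0 to 2 for Y665F and for Y665H against WT, 2 to 3 for Y665F against Y665H and 3 to 5 for interleukins. Spleen gave 1 to 2, 1 to 3 and 5 to 6. With the summed library kept, 2 passed for Y665H against WT and 4 for Y665F against Y665H (Prf1 1.10, 0.0267, and Ctsw -1.40, 0.0376). Prf1 then also passed for interleukins (1.12, 0.0459). With the summed library in place of Y665H libraries 1 and 2, Gzma (-1.76, 0.34) and Gzmb (-2.82, 0.0661) did not pass for Y665H against WT. In that setting Ctsw passed for interleukins (1.39, 0.0321). Without WT library 1 and Y665F library 3, 2 passed for Y665H against WT (Gzma -1.20, 0.0471, and Gzmb -2.74, 0.0114) and 5 for interleukins (Ctsw 1.62, 0.0101, and Prf1 1.31, 0.00733). Prf1 also passed there for Y665F against Y665H (1.33, 0.0162). Mean Srgn in WT splenic T cells, the highest group, moved from 387 to 349 CPM under library size alone, where Y665F cells with interleukins led (353).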
